A study of Mus musculus with 568 samples.

Results

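Glycolysis was followed through 10 genes in mouse embryonic stem cells (ESCs), epiblast-like cells (EpiLCs) and primordial germ cell-like cells (PGCLCs). The genes are *Slc2a1*, *Slc2a3*, *Hk2*, *Pfkp*, *Aldoa*, *Pgk1*, *Pgam1*, *Ldha*, *Ldhb* and *Pdk1*. They were chosen by name, for a role in taking up glucose, breaking it down or directing the pyruvate that results. All 10 are among the 16335 genes with bulk values and the 15718 genes with single-cell counts. *Pgk1* alone lies on the X chromosome, and its allelic ratio was used as well. In glycolysis, glucose enters through membrane transporters, is phosphorylated by a hexokinase, and is split and oxidised to pyruvate with a net gain of ATP. Lactate dehydrogenase then interconverts pyruvate and lactate in the cytosol, while the pyruvate dehydrogenase complex, which is inhibited by pyruvate dehydrogenase kinases, opens the way into mitochondria. Naive and primed pluripotent cells and early germ cells are known to differ in how far they rely on these alternatives.

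All cells descend from EL16.7 TST, a female hybrid ESC line with an X chromosome of *Mus musculus musculus* origin (X mus) and another of *Mus musculus castaneus* origin (X cas). *Tsix* is truncated on X mus, so that X mus is the X chromosome silenced upon differentiation, and GFP on X mus and tdTomato on X cas, both placed in *Hprt*, report X-chromosome activity. The cells also carry an activator transgene at Rosa26 and doxycycline-inducible *Prdm1*, *Prdm14* and *Tfap2c* transgenes, so the PGCLC state is driven by these factors and not by cytokines. Bulk RNA was sequenced from 4 libraries each of ESCs, EpiLCs made with bFGF and activin A, and XGFP+ and XGFP− PGCLCs. PGCLCs were sorted as SSEA1+/CD61+ cells from doxycycline-treated aggregates on day 5, whereas ESCs and EpiLCs were not sorted. ESCs were kept in serum with LIF and moved to 2i/LIF before induction, and the labels do not say which medium the ESC RNA came from. Medium, culture format and sorting change between the stages, and cannot be told apart from cell state in any comparison of ESCs, EpiLCs and PGCLCs. The XGFP+ and XGFP− PGCLCs come from the same aggregates. Single cells were sequenced after sorted PGCLCs had been cultured for 6 days with somatic cells of female embryonic gonads (rOvary). XGFP+ constitutive cells descend from XGFP+ PGCLCs, and XGFPhigh, XGFPintermediate and XGFPlow cells from XGFP− PGCLCs. The study describes its 4 libraries per group as 2 clones with technical replicates, but the labels number them only 1 to 4. They were treated as independent, and the p-values then measure the spread between libraries, part of which may be technical.

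The bulk libraries held 29.8 M to 46.5 M reads on genes. Marker genes separated the labelled states. The summed normalized count of 8 naive pluripotency markers ran from 164183 to 183637 in ESCs, 6914 to 11909 in EpiLCs, 60068 to 70581 in XGFP+ PGCLCs and 42191 to 48961 in XGFP− PGCLCs. Formative epiblast markers summed to between 59546 and 70596 in EpiLCs and to at most 5632 elsewhere, and germ cell markers to between 35057 and 41501 in PGCLCs and to at most 12328 in ESCs and EpiLCs. Part of the germ cell sum in PGCLCs comes from *Prdm1* and *Tfap2c*, which are also transgenes, as is *Prdm14* of the naive list. None of the 4 blood markers was among the genes with bulk values, and the 7 measured gonadal somatic markers, which EpiLCs express in part, summed to at most 151 in PGCLCs.

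Replicate 3 of EpiLCs, XGFP+ PGCLCs and XGFP− PGCLCs stood apart for these genes. In each of the 3 groups it was the lowest of the 4 libraries for 9 of the 10 genes, whereas it was the lowest for 23.7%, 22.1% and 28.2% of 11702 well-measured genes, in that order. The median distance of the 10 genes from the mean of replicates 1, 2 and 4 was −0.42, −0.50 and −0.50 on the log2 scale, with all genes at −0.01, 0.03 and 0.00. The exceptions were *Hk2* in EpiLCs and *Ldhb* in both PGCLC groups. Targets of hypoxia-inducible factor outside glycolysis, such as *Bnip3*, were lowest in the same library for 11, 10 and 13 of 14 genes. *Vegfa* was an exception in XGFP+ PGCLCs, where replicate 3 held its highest normalized count, 2777. In ESCs replicate 3 was lowest for 1 of the 10 genes, and replicate 4 was lowest for 7 of them. Results are given with all libraries and, as a choice made after seeing the data, the counts of called genes and the main fold changes also without replicate 3 of every group. What set these values in replicate 3 was not tested.

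**Figure D1:**
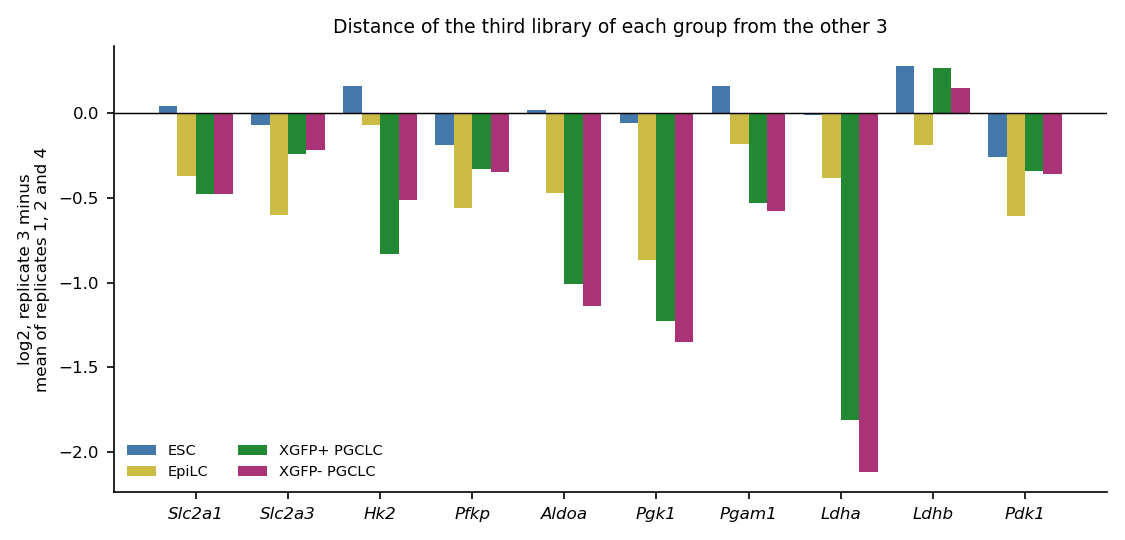
Bars give, for each gene (x axis), the log2 normalized count of replicate 3 minus the mean of replicates 1, 2 and 4 of the same group (y axis), with 1 colour per group. *Ldha* lies lowest, at −1.81 in XGFP+ and −2.12 in XGFP− PGCLCs, while the ESC bars stay between −0.26 and 0.28.

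Promoter sequence is shown for the 3 genes on which the results below turn, that is the lactate dehydrogenase genes *Ldha* and *Ldhb*, whose RNA moved in opposite directions, and the X-linked *Pgk1*. Each line holds the 250 bases before a RefSeq transcript start on GRCm38.p6, 5′ to 3′ on the strand of the gene, and capitals mark the core of the hypoxia response element, ACGTG or GCGTG, on either strand (read as CACGT or CACGC on the other one), with overlapping matches joined. The *Ldha* stretch is chr7:46845554-46845803 on the plus strand, that of *Pgk1* is chrX:106186850-106187099 on the plus strand and that of *Ldhb* is chr6:142507958-142508207 on the minus strand, and none of them overlaps an annotated exon. The *Ldha* stretch lies in an intron of a longer annotated *Ldha* transcript, and the other stretches lie just upstream of their genes.
Ldha: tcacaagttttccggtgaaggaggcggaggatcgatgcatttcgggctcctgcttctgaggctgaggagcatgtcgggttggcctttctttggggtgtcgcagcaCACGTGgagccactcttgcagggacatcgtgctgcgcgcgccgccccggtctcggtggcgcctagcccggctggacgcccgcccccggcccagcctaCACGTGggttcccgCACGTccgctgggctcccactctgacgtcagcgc
Pgk1: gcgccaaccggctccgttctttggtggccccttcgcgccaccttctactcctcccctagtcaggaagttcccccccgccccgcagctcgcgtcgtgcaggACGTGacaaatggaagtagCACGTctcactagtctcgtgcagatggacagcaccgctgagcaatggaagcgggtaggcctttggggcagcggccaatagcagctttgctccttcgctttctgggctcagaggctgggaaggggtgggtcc
Ldhb: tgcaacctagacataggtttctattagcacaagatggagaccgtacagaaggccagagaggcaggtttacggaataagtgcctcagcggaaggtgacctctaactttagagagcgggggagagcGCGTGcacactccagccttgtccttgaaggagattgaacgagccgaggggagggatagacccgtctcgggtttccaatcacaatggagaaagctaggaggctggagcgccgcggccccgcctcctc
The *Ldha* window shown holds 5 matches to ACGTG in 3 separate runs, 2 of which are the palindrome CACGTG. *Pgk1* holds 2 matches to ACGTG, and *Ldhb* holds 1 match to GCGTG. A second *Ldha* window, chr7:46846832-46847081, is not shown and holds no ACGTG and 1 GCGTG, as that of *Ldhb* does, so the difference in matches between the genes depends on the transcript start that is taken. Promoters were found for 9 of the 10 genes, all but *Slc2a3*, in 13 windows, and 11 of the 13 (84.6%) hold at least 1 match, against 38.6% of 32851 promoter windows of the same length. The 13 windows are not independent, since a pair of *Aldoa* windows overlaps and holds the same match. Windows with a match hold 54.4% to 69.6% G and C, and those without hold 38.4% and 50.4%. The comparison with all windows was not matched for base composition, and its part in the difference was not tested. CACGTG stands in 6.02% of all windows. These are matches of letters, and no binding was measured.

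Across the bulk groups, mean RNA levels of most of these genes were highest in ESCs, whereas those of *Ldhb* and *Pdk1* were highest in PGCLCs and that of *Ldha* in EpiLCs, where it overlapped with ESCs. In EpiLCs compared with ESCs, 1 of the 10 genes rose, against 24.9% of 16281 tested genes, and 4 fell, against 22.9%, at an FDR below 0.001 (limma, on log2 normalized counts plus 1). The median log2 fold change of the 10 genes was −0.73, and that of all genes 0.01. In XGFP+ PGCLCs compared with ESCs, 2 genes rose (all genes: 25%) and 7 fell (24.9%), and in XGFP− PGCLCs compared with ESCs, 2 rose (29.8%) and 6 fell (29.6%), with medians of −1.07 and −1.12 against 0.00 for all genes in both. In either PGCLC group all 10 genes had libraries that did not overlap with those of ESCs, 2 above them and 8 below. Of all genes, 30.8% lay wholly above ESCs and 31.6% wholly below in XGFP+ PGCLCs, and 35.3% and 35.4% in XGFP− PGCLCs. EpiLCs lay wholly above ESCs for 1 of the 10 genes (all genes: 31.2%) and wholly below for 6 (29.5%). These comparisons share the ESC libraries, and those below share the EpiLC or PGCLC libraries, so they are not independent of each other.

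**Figure D2:**
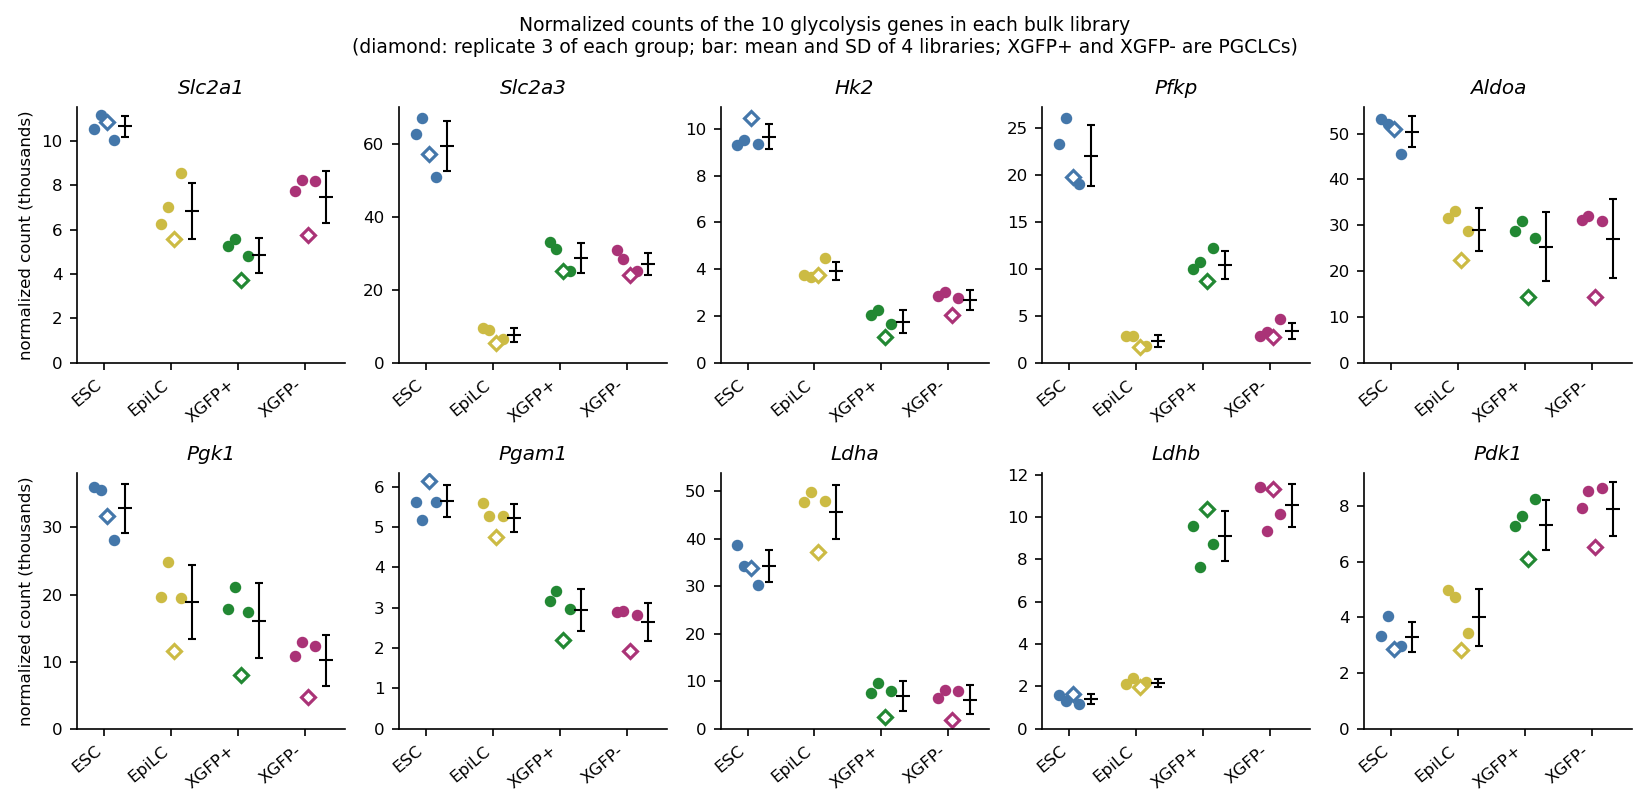
Normalized counts (y axis, in units of 1000, from 0) of the 10 genes in the 16 bulk libraries (x axis: group), with the mean and SD of 4 libraries beside the points and replicate 3 drawn as an open diamond. *Ldhb* and *Pdk1* lie highest in PGCLCs, the mean of *Ldha* lies highest in EpiLCs, and the diamond is the lowest point of most PGCLC panels.

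Compared with EpiLCs, XGFP+ PGCLCs had 4 genes that rose (all genes: 27.8%) and 3 that fell (29.5%), with a median of −0.25. XGFP− PGCLCs had 3 that rose (29.9%) and 2 that fell (31.9%), with a median of −0.01. Between the PGCLC groups, 1 gene was higher in XGFP− PGCLCs (all genes: 11.3%) and 1 was lower (12.5%), with a median of 0.00. Libraries did not overlap for 4 genes above EpiLCs (all genes: 33.8%) and 4 below (36.1%) in XGFP+ PGCLCs, for 3 above (35.5%) and 3 below (38%) in XGFP− PGCLCs, and for 1 gene in each direction between the PGCLC groups (24.0% and 21.7%).

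Without replicate 3 of every group the counts of genes that rose and fell were 2 and 6 in EpiLCs against ESCs (all genes: 21.1% and 19.5%), 2 and 8 in XGFP+ PGCLCs against ESCs (21.1% and 20.9%) and 2 and 7 in XGFP− PGCLCs against ESCs (26.4% and 26.3%). They were 4 and 4 in XGFP+ PGCLCs against EpiLCs (24.4% and 26%), 3 and 3 in XGFP− PGCLCs against EpiLCs (26.6% and 28.5%), and 2 and 2 between the PGCLC groups (7.87% and 9.39%). Each of the 10 genes kept every call it had with all libraries. In bulk RNA, fewer cells of a type and less RNA per cell cannot be told apart.

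**Figure D3:**
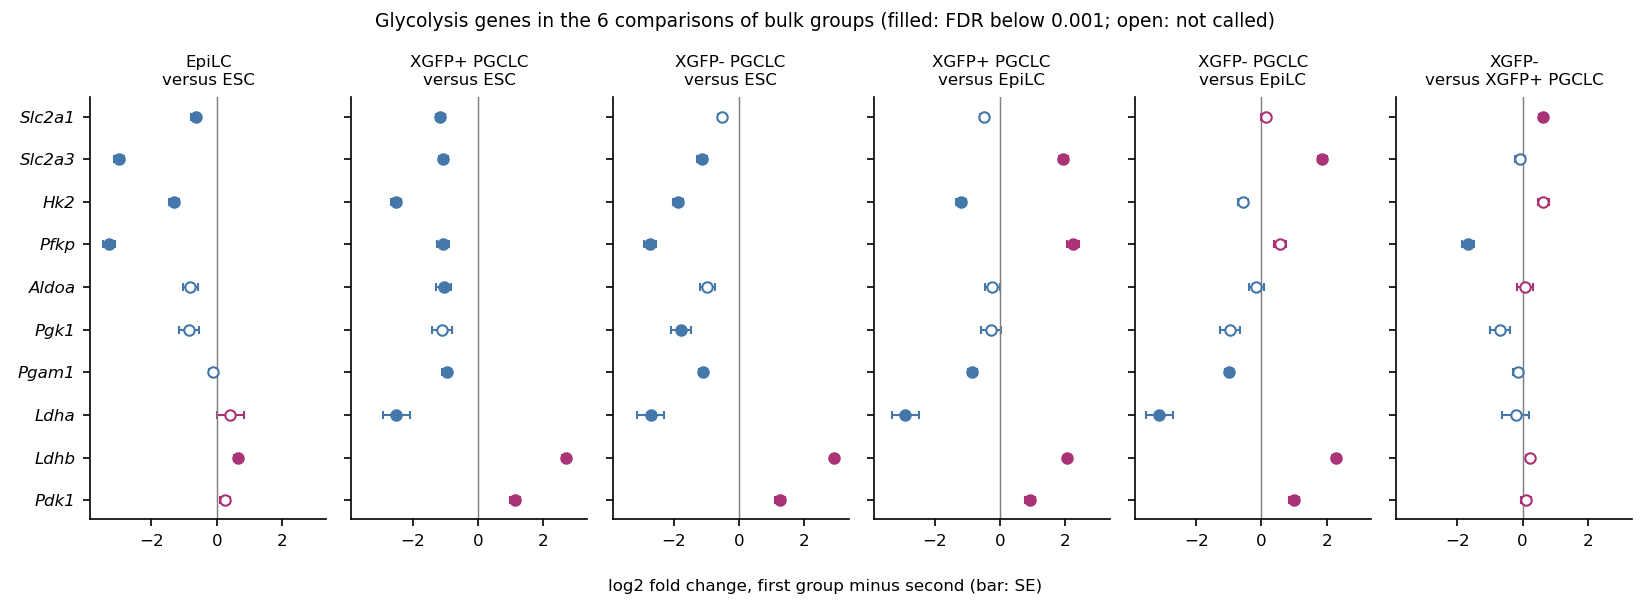
Log2 fold change of each gene (x axis, first group minus second, with the SE as a bar) in the 6 comparisons of bulk groups, filled where the FDR is below 0.001. *Slc2a3* and *Pfkp* lie at −3.00 and −3.30 in EpiLCs against ESCs, and *Ldha* and *Ldhb* lie on opposite sides of 0 in the 4 comparisons of PGCLCs with ESCs or EpiLCs.

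Glucose uptake was represented by *Slc2a1* and *Slc2a3*, which encode the facilitative transporters GLUT1 and GLUT3. *Slc2a3* (ENSMUSG00000003153, chr6:122727809-122801640, minus strand) was the transporter with more RNA per kilobase in ESCs, 8228 ± 961 normalized counts per kilobase (SD, n = 4) against 3042 ± 134.2 for *Slc2a1* (ENSMUSG00000028645, chr4:119108711-119137983, plus strand). In EpiLCs the order was the other way round, 1049 ± 263 against 1956 ± 362. This reversal depends on the exon lengths used. In normalized counts not divided by length, the EpiLC mean of *Slc2a3* was still the higher, 7602 against 6859. Normalized counts of *Slc2a3* in replicates 1 to 4 were 62794, 67221, 57305 and 51123 in ESCs and 9517, 8844, 5435 and 6613 in EpiLCs. They were 33184, 31222, 25192 and 25327 in XGFP+ PGCLCs and 30836, 28574, 24123 and 25138 in XGFP− PGCLCs. EpiLCs thus lay below every other library and ESCs above every other one, with both PGCLC groups between them and overlapping. *Slc2a3* fell 8-fold in EpiLCs (log2 fold change −3.00 ± 0.146, SE; FDR = 2.2e-12) and was higher in PGCLCs than in EpiLCs, by 1.94 ± 0.146 in XGFP+ (FDR = 7.9e-10) and by 1.87 ± 0.146 in XGFP− PGCLCs (FDR = 1.1e-09). The PGCLC groups differed from each other by −0.08 (FDR = 0.697). Without replicate 3 the log2 fold changes were −2.87 in EpiLCs against ESCs, and 1.85 and 1.77 in XGFP+ and XGFP− PGCLCs against EpiLCs.

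*Slc2a1* was the gene that rose in XGFP− compared with XGFP+ PGCLCs. Its normalized counts were 10549, 11171, 10868 and 10070.4 in ESCs and 6259.9, 7024, 5601 and 8552 in EpiLCs. They were 5252, 5561, 3734 and 4813 in XGFP+ PGCLCs and 7765, 8228, 5768 and 8204 in XGFP− PGCLCs. Every XGFP− library lay above every XGFP+ library, and all 3 groups lay below ESCs. The difference between PGCLC groups was 0.63 ± 0.133 (FDR = 7.3e-04), and it was past the threshold in 12 of 20 alternative fits (FDR 2.4e-07 to 0.00368). It was lost with edgeR (FDR = 0.00108), with the compared groups alone (FDR = 0.00213) and without any single PGCLC library other than XGFP+ replicate 2 or XGFP− replicate 3. The fall in EpiLCs was 1.57-fold (−0.65 ± 0.133, FDR = 2.7e-04) and held in 14 of 18 alternatives (1.2e-05 to 0.00153), being lost with quantile normalization and without EpiLC replicate 1, EpiLC replicate 3 or ESC replicate 2. In XGFP+ PGCLCs it was 2.23-fold below ESCs (−1.15, FDR = 3.7e-07), whereas the difference of XGFP− PGCLCs from ESCs was −0.52 (FDR = 0.00161) and did not pass. Without replicate 3 the differences from ESCs were −0.55, −1.03 and −0.39 in EpiLCs, XGFP+ and XGFP− PGCLCs, and that between PGCLC groups was again 0.63 (FDR = 1.0e-04).

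*Hk2* and *Pfkp* act early in the pathway. *Hk2* (ENSMUSG00000000628, chr6:82725025-82774454, minus strand) encodes hexokinase 2, which phosphorylates glucose. Normalized counts were 9301, 9513, 10464 and 9368 in ESCs, 3754, 3649, 3744 and 4466 in EpiLCs, 2026, 2253, 1098 and 1636 in XGFP+ PGCLCs and 2868, 3018, 2025 and 2777 in XGFP− PGCLCs. The step from ESCs to EpiLCs does not overlap and passed the test (2.48-fold lower, −1.31 ± 0.163, FDR = 1.0e-06), and so did the fall from EpiLCs to XGFP+ PGCLCs (−1.20 ± 0.163, FDR = 2.4e-06). XGFP− PGCLCs were 3.65-fold below ESCs (FDR = 5.5e-09), and their difference from EpiLCs was −0.56 (FDR = 0.00454). Without replicate 3 *Hk2* differed by −1.25 in EpiLCs against ESCs, by −1.01 in XGFP+ PGCLCs against EpiLCs and by 0.56 between PGCLC groups (FDR = 5.0e-04, over alternatives 8.4e-06 to 0.0172). *Pfkp* (ENSMUSG00000021196, chr13:6579768-6648777, minus strand) encodes the platelet-type phosphofructokinase, the committing enzyme of glycolysis. Its normalized counts were 23326, 26067, 19824 and 19117 in ESCs, 2879, 2826, 1662 and 1798 in EpiLCs, 9941, 10759, 8703 and 12235 in XGFP+ PGCLCs and 2815, 3248, 2728 and 4608 in XGFP− PGCLCs. XGFP+ PGCLCs stood between ESCs and the other groups without overlap, while XGFP− PGCLCs overlapped with EpiLCs.

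*Pfkp* was the gene that fell in XGFP− compared with XGFP+ PGCLCs, 3.15-fold (−1.66 ± 0.182, FDR = 7.6e-07), and it passed in all 20 alternatives (FDR 5.3e-17 to 4.7e-05). It fell 9.86-fold in EpiLCs compared with ESCs (−3.30 ± 0.182, FDR = 1.3e-11) and rose 4.65-fold in XGFP+ PGCLCs compared with EpiLCs (2.22 ± 0.182, FDR = 2.9e-09). The difference of XGFP− PGCLCs from EpiLCs was 0.56 (FDR = 0.00939). Without replicate 3 the values were −1.65 between PGCLC groups, −3.21 in EpiLCs against ESCs and 2.16 in XGFP+ PGCLCs against EpiLCs. *Pitrm1*, on the opposite strand, overlaps *Pfkp* and had a mean normalized count of 6551, and whether the counting used the strand that the kit marks is not given in the sources used here. Without it, reads from overlapping exons of the pair could not be told apart.

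*Aldoa*, *Pgk1* and *Pgam1* encode enzymes of the middle of the pathway, aldolase A, phosphoglycerate kinase 1 and phosphoglycerate mutase 1. *Aldoa* (ENSMUSG00000030695, chr7:126795234-126800751, minus strand) was the gene with most RNA per kilobase of the 10 in ESCs, 17326 ± 1159.7. It ran from 45541 to 53107 normalized counts in ESCs, from 22435 to 32991 in EpiLCs, from 14403 to 30993 in XGFP+ PGCLCs and from 14256 to 32051 in XGFP− PGCLCs. ESCs lay above all other libraries, and the other 3 groups overlapped. *Aldoa* passed the test in XGFP+ PGCLCs against ESCs (−1.05 ± 0.237, FDR = 6.7e-04), though in 10 of 18 alternatives only (FDR 3.9e-07 to 0.00255). It was lost with edgeR, with quantile normalization and without any 1 of the 4 ESC libraries, XGFP+ replicate 3 or XGFP+ replicate 4. Its differences of −0.81 in EpiLCs (FDR = 0.00545) and −0.97 in XGFP− PGCLCs (FDR = 0.00117) against ESCs did not pass with all libraries. Without replicate 3 of every group they were −0.69 (FDR = 1.6e-06, over alternatives 1.6e-06 to 0.0229) and −0.68 (FDR = 1.3e-06, over alternatives 1.3e-06 to 0.00401).

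*Pgam1* (ENSMUSG00000011752, chr19:41911923-41918660, plus strand) ran from 5176 to 6126 in ESCs, 4757 to 5586 in EpiLCs, 2197 to 3407 in XGFP+ PGCLCs and 1925 to 2921 in XGFP− PGCLCs. EpiLCs overlapped with ESCs (−0.11, FDR = 0.466), and both PGCLC groups lay below both. *Pgam1* fell 1.80-fold in XGFP+ (−0.85 ± 0.129, FDR = 8.9e-06) and 2.00-fold in XGFP− PGCLCs (FDR = 9.7e-07) compared with EpiLCs, with log2 fold changes of −0.76 and −0.90 without replicate 3. Reads of *Pgam1* can be split with near-identical copies, since *Pgam1-ps1* and *Pgam1-ps2* are both among the genes with bulk values, the higher with a mean normalized count of 1351.

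*Pgk1* (ENSMUSG00000062070, chrX:106187100-106203699, plus strand) had normalized counts of 36043, 35527, 31696 and 28191 in ESCs and 19659, 24854, 11607 and 19404 in EpiLCs. They were 17910.3, 21094, 7996 and 17396 in XGFP+ PGCLCs and 10822, 12869, 4680.1 and 12287 in XGFP− PGCLCs. ESCs lay above all other libraries, and replicate 3 was the lowest of each differentiated group. XGFP− PGCLCs were 3.46-fold below ESCs (−1.79 ± 0.306, FDR = 3.3e-05), and this passed in all 18 alternatives. The other differences from ESCs, −0.84 in EpiLCs (FDR = 0.0209) and −1.11 in XGFP+ PGCLCs (FDR = 0.00349), did not pass with all libraries. Without replicate 3 they were −0.64 (FDR = 2.2e-04, over alternatives 2.2e-04 to 0.0867) and −0.82 (FDR = 2.3e-05, over alternatives 2.3e-05 to 0.0163). Between XGFP− PGCLCs and EpiLCs the difference was −0.95 (FDR = 0.00903), and −0.82 without replicate 3 (FDR = 1.4e-05, over alternatives 1.4e-05 to 0.044).

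The allelic ratio, the fraction of allele-specific *Pgk1* reads that carry the X mus variant, showed from which X chromosome the RNA came. It was 0.437, 0.459, 0.404 and 0.438 in ESCs, 0.179, 0.185, 0.172 and 0.129 in EpiLCs, 0.424, 0.422, 0.434 and 0.452 in XGFP+ PGCLCs and 0.0481, 0.0898, 0.0571 and 0.123 in XGFP− PGCLCs. ESCs and XGFP+ PGCLCs overlapped, EpiLCs lay below both, and XGFP− PGCLCs lay below EpiLCs. The means were 0.434 ± 0.0225, 0.166 ± 0.0252, 0.433 ± 0.0140 and 0.0795 ± 0.0341 (SD, n = 4). In an exact two-sided permutation test, 5 of the 6 pairs of groups gave p = 0.0286, the smallest that 4 against 4 libraries can give, which is 0.0343 after adjustment over the 6 pairs. The sixth, XGFP+ PGCLCs against ESCs, differed by −0.00131 ± 0.0132 (SE) with p = 0.914 by the same exact test. The PGCLC groups were sorted on GFP carried by X mus, so the direction of the difference between them was set by the sort. The p-value of that pair therefore cannot serve as a test of it. The sort also shaped the ratios that the PGCLC groups bring to their pairs with ESCs and EpiLCs. Only the pair of EpiLCs and ESCs was free of it. Read numbers behind the ratios were not used here, so their counting error is unknown. Among 185 X-linked genes between 0.2 and 0.8 in every ESC library, the median per library ran from 0.446 to 0.463 in ESCs, 0.216 to 0.241 in EpiLCs, 0.388 to 0.411 in XGFP+ PGCLCs and 0.0362 to 0.0435 in XGFP− PGCLCs. Of these genes, 68.6% lay above *Pgk1* in EpiLCs and 42.2% in XGFP− PGCLCs, so the gene was within the range of its chromosome.

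Multiplying ratio and normalized count assigns the RNA to the 2 X chromosomes. The level from X cas was 18562 ± 1905 in ESCs, 15725 ± 4456 in EpiLCs, 9139.8 ± 3275 in XGFP+ PGCLCs and 9301 ± 3311 in XGFP− PGCLCs. It did not differ detectably between XGFP− and XGFP+ PGCLCs, by 0.02 ± 0.457 on the log2 scale (exact permutation test, p = 0.914, also after adjustment over 6 pairs), and both lay wholly below ESCs (p = 0.0286 by the exact test, adjusted 0.0857). The test and its SE left out the pairing of the PGCLC libraries, so the SE includes spread that same-numbered libraries share. In replicates 1 to 4 the level from X cas was 10315, 12195, 4523 and 9525 in XGFP+ PGCLCs. It was 10302, 11713, 4413 and 10776 in XGFP− PGCLCs. Without replicate 3 the PGCLC values were 10679 ± 1372 and 10930.3 ± 718 (n = 3). The level from X mus was 14302 ± 2013 in ESCs, 3155 ± 1148 in EpiLCs, 6959 ± 2391 in XGFP+ PGCLCs and 864 ± 571 in XGFP− PGCLCs. XGFP+ PGCLCs, whose ratio overlapped with that of ESCs, thus had lower mean levels than ESCs from both X chromosomes.

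Of the other X-linked genes near the pathway, *Pdha1*, which encodes the catalytic subunit of pyruvate dehydrogenase, had a mean ratio of 0.572 ± 0.00576 in ESCs, 0.25 ± 0.0457 in EpiLCs, 0.494 ± 0.0283 in XGFP+ PGCLCs and 0.0417 ± 0.00499 in XGFP− PGCLCs. *G6pdx*, the entry enzyme of the pentose phosphate pathway, had 0.525 ± 0.0157, 0.347 ± 0.0365, 0.469 ± 0.0253 and 0.139 ± 0.0329 in the same order. *Phka1*, a regulatory subunit of phosphorylase kinase, lay lower throughout, at 0.287 ± 0.0477, 0.0453 ± 0.0159, 0.145 ± 0.0225 and 0.00194 ± 0.00254. All 3 had the order of *Pgk1*, lowest in XGFP− PGCLCs and next lowest in EpiLCs.

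**Figure D4:**
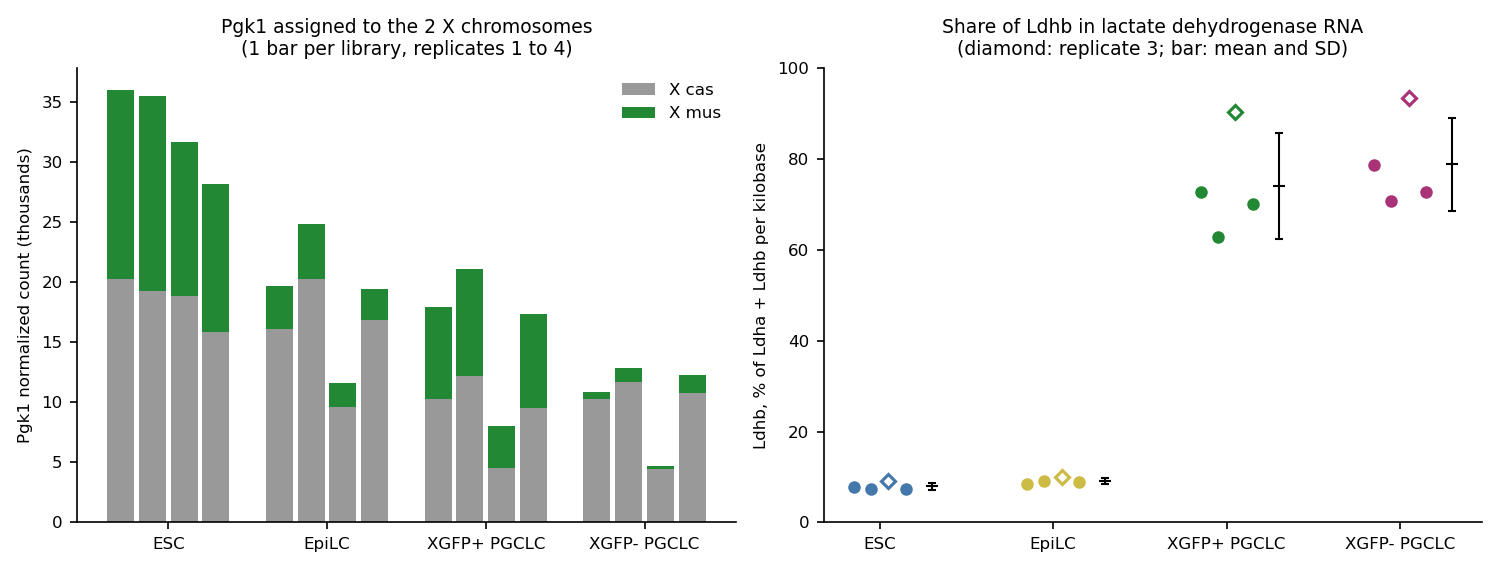
Left, *Pgk1* normalized counts (y axis, in units of 1000) assigned to X cas (grey) and X mus (green), 1 bar per library. Right, the share of *Ldhb* in the summed per-kilobase level of *Ldha* and *Ldhb* in percent (y axis, 0 to 100), with mean and SD and replicate 3 as a diamond. X mus is nearly absent from the XGFP− bars, and *Ldhb* stands at 62.9% or more in every PGCLC library and at 9.96% or less in every ESC and EpiLC library.

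The lactate dehydrogenase genes moved apart. *Ldha* (ENSMUSG00000063229, chr7:46841475-46855627, plus strand) encodes the muscle-type subunit, and *Ldhb* (ENSMUSG00000030246, chr6:142490249-142507957, minus strand) the heart-type subunit, which together form the tetramers that interconvert pyruvate and lactate. Normalized counts of *Ldha* were 38703, 34306, 33904 and 30274 in ESCs, 47804, 49846, 37322 and 47958 in EpiLCs, 7545, 9526, 2353 and 7876 in XGFP+ PGCLCs and 6518, 8154, 1729 and 7997 in XGFP− PGCLCs. Every PGCLC library lay below every ESC and EpiLC library. Those of *Ldhb* were 1568, 1281, 1611 and 1156 in ESCs, 2123, 2390.1, 1958 and 2193 in EpiLCs, 9597, 7657, 10389 and 8739 in XGFP+ PGCLCs and 11412, 9322, 11343 and 10133 in XGFP− PGCLCs. Here every PGCLC library lay above every ESC and EpiLC library, and EpiLCs above ESCs.

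*Ldha* fell 7.52-fold in XGFP+ (−2.91 ± 0.416, FDR = 4.3e-06) and 8.73-fold in XGFP− PGCLCs (−3.13 ± 0.416, FDR = 1.5e-06) compared with EpiLCs. Without replicate 3 the values were −2.55 (FDR = 6.6e-11) and −2.69 (FDR = 2.5e-11), each past the threshold in all 18 alternatives (highest FDR 2.6e-05 and 1.2e-05). *Ldhb* rose 4.18-fold (2.06 ± 0.108, FDR = 5.1e-12) and 4.87-fold (2.28 ± 0.108, FDR = 8.9e-13), and its rise from ESCs to EpiLCs was 1.55-fold (0.64 ± 0.108, FDR = 4.1e-05), and the log2 fold changes without replicate 3 were 1.95, 2.20 and 0.75. *Ldhb* in PGCLCs also stood apart from the other genes in replicate 3, where it was not the lowest of the 4 libraries. *Ldha* in EpiLCs differed from ESCs by 0.41 ± 0.416 (FDR = 0.397), and by 0.50 without replicate 3 (FDR = 8.1e-04, over alternatives 8.1e-04 to 0.521).

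Per kilobase of exon, the share of *Ldhb* in the sum of both genes was 7.93% ± 0.820 in ESCs, 9.12% ± 0.614 in EpiLCs, 74% ± 11.6 in XGFP+ PGCLCs and 78.8% ± 10.2 in XGFP− PGCLCs (SD, n = 4). In replicates 1 to 4 it was 72.8%, 62.9%, 90.3% and 70.1% in XGFP+ PGCLCs and 78.7%, 70.7%, 93.3% and 72.8% in XGFP− PGCLCs, with replicate 3 the highest in both. The summed level per kilobase changed less than the share, from 11256 ± 1148 in ESCs and 15196 ± 1817 in EpiLCs to 7855 ± 441 and 8564 ± 643 in XGFP+ and XGFP− PGCLCs. The share depends on the exon lengths used, 3310 bases for *Ldha* and 1570 for *Ldhb*. In normalized counts not divided by length, XGFP+ replicate 2 held more *Ldha* (9526) than *Ldhb* (7657). Every other PGCLC library held more *Ldhb*. RNA was measured, and not enzyme activity or lactate.

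*Pdk1* (ENSMUSG00000006494, chr2:71873224-71903858, plus strand) encodes a pyruvate dehydrogenase kinase, which limits the entry of pyruvate into mitochondria. Normalized counts were 3335, 4029.5, 2851 and 2972 in ESCs, 4978, 4716, 2826 and 3441 in EpiLCs, 7276, 7649.9, 6086 and 8236 in XGFP+ PGCLCs and 7926, 8531, 6511 and 8627 in XGFP− PGCLCs. ESCs and EpiLCs overlapped, and all PGCLC libraries lay above both. It rose 1.87-fold in XGFP+ (0.90 ± 0.154, FDR = 3.5e-05) and 2.02-fold in XGFP− PGCLCs (1.01 ± 0.154, FDR = 8.2e-06) compared with EpiLCs, whereas EpiLCs and ESCs differed by 0.25 (FDR = 0.161). Without replicate 3 the values were 0.83, 0.95 and 0.34, in the same order.

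Replicate numbers paired the XGFP+ and XGFP− libraries, and a fit of the 8 PGCLC libraries alone with the number as a block, added after seeing the data, called more of the 10 genes. In XGFP− PGCLCs 3 were higher (all genes: 16.7%), *Slc2a1* (0.63 ± 0.0444, FDR = 2.4e-07), *Hk2* (0.64 ± 0.0695, FDR = 8.4e-06) and *Ldhb* (0.22 ± 0.0400, FDR = 5.5e-04). Lower were 2 (15.4%), *Pfkp* (−1.66 ± 0.0581, FDR = 1.4e-09) and *Pgk1* (−0.68 ± 0.0473, FDR = 2.3e-07). Over the 20 alternatives the FDR ran from 8.4e-06 to 0.0172 for *Hk2*, from 5.5e-04 to 0.324 for *Ldhb* and from 2.3e-07 to 0.312 for *Pgk1*. In the fit of all 16 libraries with the number as a block, the calls were those without the block, 1 higher (12.2%) and 1 lower (13.4%).

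The rest of the pathway was followed with lists of named genes. Of 20 other glycolytic enzymes tested, 3 rose and 6 fell in EpiLCs against ESCs, 2 rose and 9 fell in XGFP+ PGCLCs, and 4 rose and 13 fell in XGFP− PGCLCs, with medians of 0.01, −0.65 and −1.03. *Eno1*, which encodes enolase 1, fell in XGFP+ (−1.11 ± 0.185, SE; FDR = 3.4e-05) and in XGFP− PGCLCs (−1.33 ± 0.185, FDR = 3.0e-06) against ESCs. It is nearly identical to *Eno1b*, and their reads may be split. *Tpi1*, triosephosphate isomerase, fell in XGFP+ PGCLCs (−1.45 ± 0.283, FDR = 1.7e-04). *Hk1*, the constitutive hexokinase, had another order of levels than *Hk2*. Its normalized count averaged 3566 ± 289 in ESCs, 556 ± 37.1 in EpiLCs, 4096 ± 140.5 in XGFP+ PGCLCs and 2016 ± 322 in XGFP− PGCLCs, all from 4 libraries. It fell in EpiLCs against ESCs (−2.68 ± 0.0903, FDR = 1.8e-14) and in XGFP− compared with XGFP+ PGCLCs (−1.03 ± 0.0903, FDR = 5.0e-08).

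Among the enzymes that make or break fructose 2,6-bisphosphate, the activator of phosphofructokinase, 4 of 5 fell in EpiLCs, and 4 of 5 rose in each PGCLC group against ESCs. *Pfkfb3* rose by 1.08 ± 0.185 in XGFP+ (FDR = 4.5e-05) and 1.73 ± 0.185 in XGFP− PGCLCs (FDR = 9.4e-08), and *Pfkfb2* rose by 0.80 ± 0.115 from XGFP+ to XGFP− PGCLCs (FDR = 1.6e-05). *Tigar*, which lowers fructose 2,6-bisphosphate, was the 1 that fell (−1.39 ± 0.0861, FDR = 8.3e-11, and −1.78 ± 0.0861, FDR = 1.2e-12). Among the monocarboxylate transporters, *Slc16a3*, which encodes the lactate exporter MCT4, had mean normalized counts of 1959.8 ± 478 in ESCs, 10989 ± 939 in EpiLCs, 650.2 ± 343 in XGFP+ PGCLCs and 861 ± 458 in XGFP− PGCLCs. It rose by 2.52 ± 0.514 in EpiLCs against ESCs (FDR = 2.8e-04). Of the 5 tested genes of this list, transporters and their accessory proteins together, 3 rose there and none fell. Against EpiLCs *Slc16a3* fell in XGFP+ (−4.34 ± 0.514, FDR = 4.1e-07) and in XGFP− PGCLCs (−3.97 ± 0.514, FDR = 1.1e-06), where its level in replicate 3 was again the lowest of 4.

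For pyruvate entry into mitochondria, 2 of 14 genes rose and 5 fell in EpiLCs, 4 rose and 5 fell in XGFP+ PGCLCs, and 3 rose and 8 fell in XGFP− PGCLCs, all against ESCs. *Pdk4*, a further pyruvate dehydrogenase kinase, rose with *Pdk1*, by 1.71 ± 0.168 in XGFP+ (FDR = 4.5e-08) and 1.95 ± 0.168 in XGFP− PGCLCs (FDR = 4.6e-09), and *Pcx*, pyruvate carboxylase, by 1.51 ± 0.105 (FDR = 4.0e-10) and 1.4 ± 0.105 (FDR = 5.7e-10). *Pdha1* fell from XGFP+ to XGFP− PGCLCs (−0.62 ± 0.0678, FDR = 6.8e-07). In the pentose phosphate pathway, 7 of 9 genes fell and 2 rose in XGFP− PGCLCs against ESCs, and 3 fell and 1 rose in XGFP+ PGCLCs. *G6pdx* fell in XGFP+ (−1.4 ± 0.0714, FDR = 6.4e-12) and in XGFP− PGCLCs (−2.34 ± 0.0714, FDR = 2.6e-15), and so did *Tkt*, transketolase (−1.14 ± 0.0511, FDR = 1.0e-12, and −1.73 ± 0.0511, FDR = 1.7e-15). The share of all genes called in each direction stands above for each comparison.

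Other sugar transporters were led by *Slc2a12*, which encodes GLUT12 and stood at 7.12 ± 4.84 in ESCs, 6.48 ± 1.30 in EpiLCs, 127.6 ± 7.46 in XGFP+ PGCLCs and 295 ± 35.8 in XGFP− PGCLCs. It rose by 4.28 ± 0.382 (FDR = 1.3e-08) and 5.47 ± 0.382 (FDR = 2.3e-10) in the PGCLC groups against ESCs, and of the 7 tested transporters 4 rose and 2 fell in XGFP− PGCLCs, and 2 rose and 2 fell in XGFP+ PGCLCs. Of the 4 tested genes of gluconeogenesis, 2 fell in every comparison with ESCs, *Fbp2*, a fructose bisphosphatase, and *Pck2*, the mitochondrial phosphoenolpyruvate carboxykinase. Of the others, 1 rose in EpiLCs, 1 in XGFP+ PGCLCs and 2 in XGFP− PGCLCs. *Fbp2* fell in XGFP+ (−2.59 ± 0.21, FDR = 3.5e-09) and in XGFP− PGCLCs (−3.63 ± 0.21, FDR = 1.6e-11).

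Regulators both rose and fell against ESCs. Of all genes, 22.9% to 29.8% were called in each direction there. Of 10 regulators of hypoxia-inducible factor, 5 rose and 3 fell in EpiLCs, 3 rose and 1 fell in XGFP+ PGCLCs and 3 rose and 3 fell in XGFP− PGCLCs, against ESCs. *Egln3*, a prolyl hydroxylase that is itself induced by the factor, rose by 2.66 ± 0.432 (FDR = 2.4e-05) and 2.96 ± 0.432 (FDR = 5.1e-06) in the PGCLC groups. Of 15 targets of the factor outside glycolysis, 3 rose and 7 fell in EpiLCs, 3 rose and 2 fell in XGFP+ PGCLCs, and 3 rose and 3 fell in XGFP− PGCLCs. *Vegfa*, the angiogenic growth factor, had 2135 ± 801 normalized counts in ESCs, 528 ± 57.9 in EpiLCs, and 2633 ± 183 and 3385 ± 318 in the PGCLC groups. Of 10 other regulators of glycolysis genes, 3 rose and 3 fell in either PGCLC group against ESCs, *Myc* among those that fell (−1.33 ± 0.267, FDR = 2.3e-04, in XGFP+ and −2.39 ± 0.267, FDR = 1.7e-07, in XGFP− PGCLCs). *Lin28a*, an RNA-binding regulator of metabolism, rose by 2.19 ± 0.105 in EpiLCs against ESCs (FDR = 1.8e-12).

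Against EpiLCs, 4 of the 20 other glycolytic enzymes rose and 8 fell in either PGCLC group. Of the 5 tested genes of the monocarboxylate transporter list, 3 fell in either. Of all genes, 27.8% rose and 29.5% fell in XGFP+ PGCLCs against EpiLCs, and 29.9% and 31.9% in XGFP− PGCLCs. In XGFP− compared with XGFP+ PGCLCs, 11.3% of all genes were higher and 12.5% lower. Between the PGCLC groups, 3 other glycolytic enzymes were higher and 3 lower in XGFP− PGCLCs, while of the 9 pentose phosphate genes 2 were higher and 6 lower, and of the 14 genes of pyruvate entry none was higher and 4 were lower. *G6pdx* and *Pdha1*, both X-linked, are among those lower. Among 15 hypoxia-inducible factor targets outside glycolysis, 1 gene was higher there and none was lower.

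Without replicate 3 of every group, the counts given for these lists moved by at most 1 gene in each direction, apart from 4 counts. Pyruvate entry had 6 genes that fell in XGFP− PGCLCs against ESCs and 2 between PGCLC groups, where it had 8 and 4 with all libraries. Other sugar transporters that rose in XGFP− PGCLCs went from 4 to 2, and regulators of hypoxia-inducible factor that rose in EpiLCs from 5 to 3. *Tpi1* stood at −1.12 in XGFP+ PGCLCs against ESCs (FDR = 8.7e-07) and *Eno1* at −0.92 and −1.11 in XGFP+ and XGFP− PGCLCs. *Slc16a3* stood at 2.54 in EpiLCs against ESCs, and at −3.81 and −3.39 in the PGCLC groups against EpiLCs. *Myc* in XGFP+ PGCLCs no longer passed (−1.10, FDR = 0.00744).

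The genes most like *Ldha* over the 16 libraries, among 11702 genes, were *Eno1b* (Pearson's r = 0.994), *Eno1* (0.992) and *Pkm* (0.987), which are themselves glycolytic. Those most like *Pgk1* were *Hprt* (0.958), *Skp1a* (0.910) and *Aldoa* (0.910). *Hprt* is X-linked and carries the reporters on both X chromosomes. *Slc2a3* was most like *Myh7b* (0.986), *Hhip* (0.983) and the naive pluripotency factor *Tfcp2l1* (0.981), and *Ldhb* was most like *Mbp* (0.994), *Zfp521* (0.993) and *Chdh* (0.993). The gene most like *Pfkp* was *Bcap31* (0.984), and the one most like *Pgam1* was its copy *Pgam1-ps2* (0.988). These values describe log2 levels that fall into groups of 4 libraries, so each r rests mostly on the differences between groups.

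The single-cell data hold 518 wells of the 4 rOvary populations, 24 ESCs and 10 empty wells. After the filters, 462 rOvary cells remained, 88 of them XGFP+ constitutive and 125 XGFPhigh cells and the others split nearly evenly between XGFPintermediate and XGFPlow, and all 24 ESCs remained. The labels name no culture or animal behind a cell, so each population counts as 1 sample, no test was made, and the exact 95% Poisson intervals given here cover counting error only. The summed level of the 10 genes was 8537 CPM (reads of the population pooled and scaled to the same total; interval 8504 to 8569) in XGFP+ constitutive and 8540.2 (8520.3 to 8560.1) in XGFPhigh cells. It was 2923 (2911 to 2934) in XGFPintermediate, 3829 (3815 to 3842) in XGFPlow and 7463 (7429 to 7496) in ESCs. Over cells, the median sum was 8344 in XGFP+ constitutive and 8266 in XGFPhigh cells, and 1765 and 2523 in XGFPintermediate and XGFPlow cells. The empty wells held 2 reads of the 10 genes in all.

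**Figure D5:**
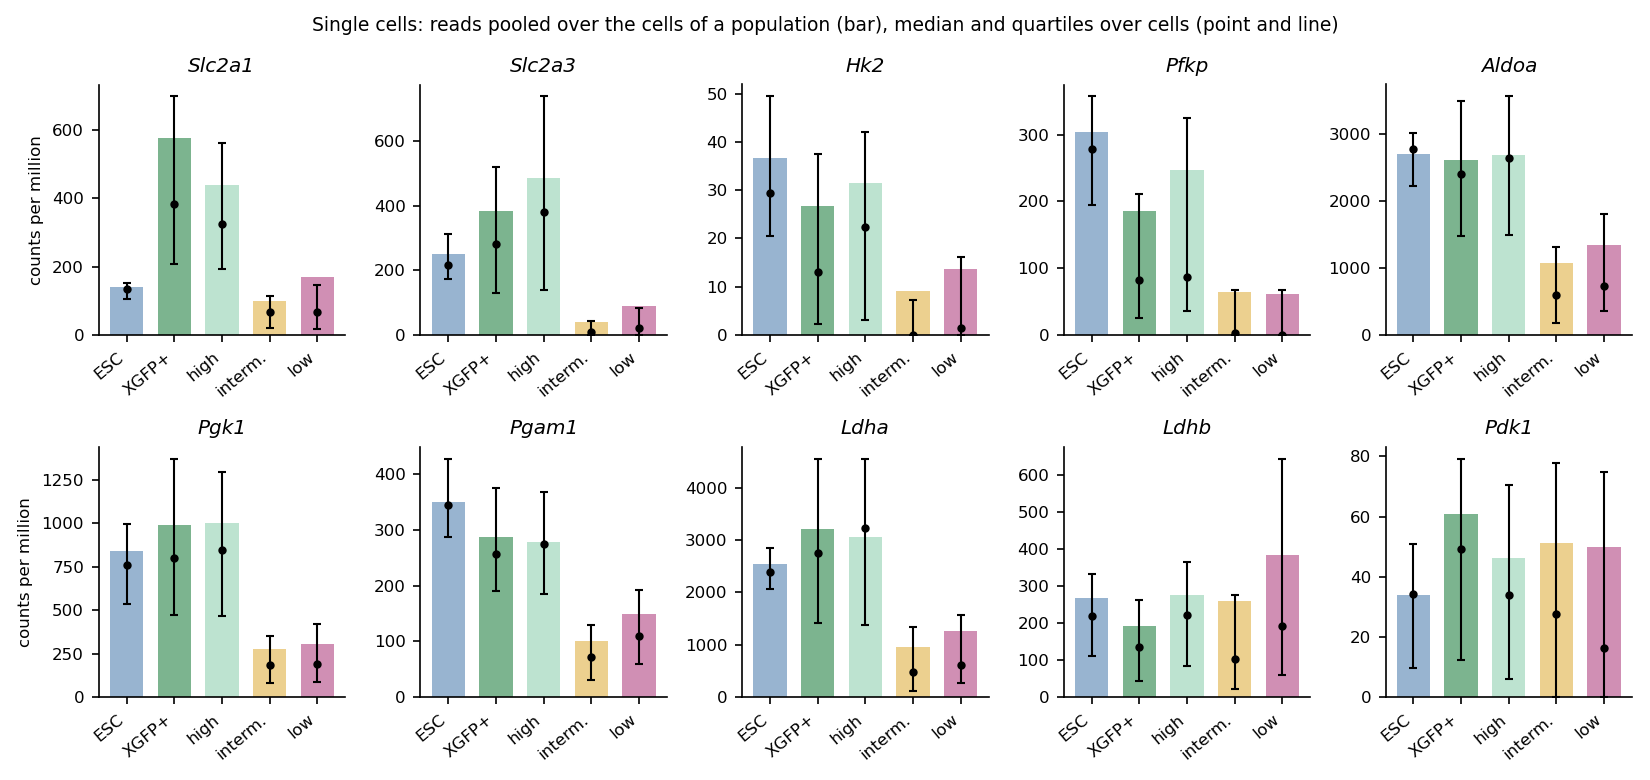
Pooled CPM of each gene in the 5 single-cell populations (bars, y axis from 0, a scale of its own per gene), with the median and quartiles over cells as point and line. On the x axis XGFP+ stands for the XGFP+ constitutive cells, and high, interm. and low for the cells derived from XGFP− PGCLCs. In 8 of the 10 panels the XGFPintermediate and XGFPlow bars are lower than the XGFP+ constitutive and XGFPhigh bars, with *Ldhb* and *Pdk1* as the exceptions.

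The same split ran through the pathway. *Slc2a1* stood at 576 and 438 CPM in XGFP+ constitutive and XGFPhigh cells and at 98.7 and 168 in XGFPintermediate and XGFPlow cells, and *Slc2a3* at 384 and 487 against 39.6 and 88.2. *Hk2* had 26.7 and 31.5 against 9.12 and 13.7, and *Pfkp* 185 and 247 against 63.8 and 61.4. *Aldoa* had 2615 and 2688 against 1068 and 1348, and *Pgk1* 992 and 1001 against 279.7 and 306. For these 6 genes, and for *Pgam1* and *Ldha*, XGFPintermediate and XGFPlow cells were both below XGFP+ constitutive and XGFPhigh cells when all cells were pooled. In the cells of the 1 run code that all 4 populations share, this held for 7 of the 8 genes. *Pfkp* there stood at 185 CPM in XGFP+ constitutive, 78.3 in XGFPhigh, 131.9 in XGFPintermediate and 32.6 in XGFPlow cells, so XGFPintermediate lay above XGFPhigh. XGFPhigh cells of that code also had 209.6 CPM of *Slc2a1* and 215 of *Slc2a3*, less than in XGFPhigh cells of all codes. *Ldha* stood at 3219 and 3049 CPM against 952 and 1259.8, with medians over cells of 2757 and 3229 against 472 and 609.6. *Ldhb* stood at 192 and 276 against 259.5 and 384, and *Pdk1* at 60.8 and 46.1 against 51.3 and 49.8.

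Per kilobase, *Ldhb* made up 11.2% of both lactate dehydrogenase genes in XGFP+ constitutive, 16% in XGFPhigh, 36.5% in XGFPintermediate, 39.1% in XGFPlow cells and 18.1% in ESCs. The median over cells with a read of either gene was 9.88%, 13.7%, 34.7%, 34.8% and 14.9%. *Ldhb* thus stayed the lesser of the pair in pooled reads of every population. Per kilobase it was the greater in 36.5% of XGFPintermediate and 40% of XGFPlow cells with a read of either gene. Not divided by length, its share of pooled reads was 5.64%, 8.30%, 21.4%, 23.3% and 9.47%, in the same order of populations. Bulk and single-cell libraries were made with different kits, and their levels were not compared.

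Other measures moved with the summed level of the 10 genes. Naive pluripotency markers summed to 1203 CPM in XGFP+ constitutive, 1529 in XGFPhigh, 278 in XGFPintermediate, 349 in XGFPlow cells and 2612 in ESCs. The 12 gonadal somatic markers summed to 14.6, 11.3, 438, 94.1 and 14.6 in that order, and the germ cell markers to 3320.3, 3141, 4375, 3357 and 206. The collagen genes *Col3a1* and *Col1a2* made up most of the gonadal somatic sum in XGFPintermediate and XGFPlow cells, with 245 and 132.8 CPM in XGFPintermediate and 29.2 and 24.4 in XGFPlow cells. Apart from the 3 collagen genes of the list, *Amhr2*, the receptor of anti-Müllerian hormone, was the highest in both populations, at 6.89 and 18.5, *Wt1* stood at 2.19 and 3.22, and *Lhx9* had no read in either. Among cells with a natural-log normalized *Dazl* level above 1, the summed level of the 10 genes was 8637, 8239, 2515 and 2694, so the split remained there, and XGFPlow changed from 3829 to 2694. Median reads per cell were 354149 in XGFP+ constitutive cells, between 636623 and 645474 in the other rOvary populations and 1103780 in ESCs. All XGFP+ constitutive cells share 1 run code, which no ESC carries. In the cells of that code the summed level was 8537, 6416 (14 cells of XGFPhigh), 3331 (16 of XGFPintermediate) and 2208 (15 of XGFPlow). The part of somatic RNA, depth or run in these levels was otherwise not tested.

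Meiosis genes ran the other way in some populations. *Sycp3*, a component of the synaptonemal complex, stood at 16.4 CPM in XGFP+ constitutive, 204 in XGFPhigh, 425 in XGFPintermediate and 107.1 in XGFPlow cells, and *Stra8*, which is needed for meiotic entry, at 1043, 936, 2889 and 2521. Across cells, log2 levels of *Ldha* and *Sycp3* had r = −0.643 in the 125 XGFPhigh cells and −0.145 in the 88 XGFP+ constitutive cells. It was −0.680 in XGFPintermediate and −0.120 in XGFPlow cells, so it was strongest in the 2 populations with most *Sycp3*. *Ldha* and *Aldoa* had r = 0.793, 0.904, 0.803 and 0.546 in XGFP+ constitutive, XGFPhigh, XGFPintermediate and XGFPlow cells, while *Ldha* and *Ldhb* had 0.009, 0.648, 0.567 and 0.002. The cells of a population share a sort and its libraries and differ in depth, and these values are descriptions.

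In single cells the *Pgk1* allelic ratio had a median of 0.522 in XGFP+ constitutive (78 cells with a ratio), 0.525 in XGFPhigh, 0.471 in XGFPintermediate (81 cells) and 0.351 in XGFPlow cells (68 cells), and 0.458 in 23 ESCs. It was at or below 0.1 in 2.56%, 4.31%, 12.3% and 26.5% of the cells of the rOvary populations, in that order. *Pdha1* had medians of 0.469, 0.500, 0.269, 0.101 and 0.555, and *G6pdx* of 0.538, 0.517, 0.506, 0 and 0.554. XGFPlow cells were lowest for all 3 genes. The cells were sorted on a reporter of the same chromosome, and the read numbers behind each ratio were not used here.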

How the data were processed

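RNA of 16 bulk libraries, 4 per group, and of single rOvary cells and ESCs was analysed from the deposited tables. The bulk signal values are read counts that the authors divided by DESeq2 size factors. Per the study's methods and the submitters' processing notes, stranded total RNA libraries were aligned with STAR to mm10, with WASP for allelic bias, and counted with HTSeq (version 0.6.1), and DESeq2 (version 1.16), limma, DESeq and Seurat are also named. The allelic ratio is a fraction, which the authors computed as X mus reads over X mus and X cas reads of a gene. The single-cell values are raw read counts per gene and cell, deposited by the authors from plate libraries with 1 cell per well and without molecular identifiers, for which the labels name an updated SMART-seq2 protocol and the study's text a SMARTer kit. A set of 4 columns of neural progenitor cells was not used.

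Bulk values were tested as log2(normalized count + 1) with limma (version 3.58.1, R 4.3.3; moderated with a mean-variance trend) in 1 fit of all 16 libraries, without a block, over 16281 genes with a mean normalized count above 10. P-values were adjusted by Benjamini-Hochberg over all these genes, and calls had an FDR below 0.001. Fold changes on this scale understate the change of low genes. Whole reads were recovered from the steps of the values (100% of values within 0.01 of a whole number) and tested with edgeR (version 4.0.16) and DESeq2 (version 1.42.0) as alternatives. These called 48.4%, 49.6%, 59.3%, 58.3%, 62.6% and 24.4% (edgeR) and 52.8%, 54.5%, 63.3%, 62.3%, 66.3% and 31.0% (DESeq2) of genes in the 6 comparisons, in the order EpiLC against ESC, XGFP+ and XGFP− PGCLC against ESC, the same against EpiLC, and XGFP− against XGFP+ PGCLC. Limma called 47.8%, 49.9%, 59.4%, 57.3%, 61.9% and 23.8%. Other alternatives were pseudocounts of 0.5 and 10, no filter or a mean above 100, quantile normalization, a replicate block, the compared groups alone, other thresholds and leaving out each library. Data simulated for XGFP− against XGFP+ PGCLCs over 16281 genes gave back 86% of genes changed 2-fold and 100% of those changed 4-fold with limma and 0 false calls. With edgeR it was 84% and 100% and 0 false calls, and with DESeq2 91% and 100% and 3 false calls. In these data the libraries were independent, 100 genes were changed at each fold, and all other genes were unchanged. They held no pairing and no shift of replicate 3, so they do not show how the fits perform on the real libraries.

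Same-numbered XGFP+ and XGFP− libraries deviated together from their group means (r = 0.253, 0.135, 0.2 and 0.307), each pair above 0.1, so the number was taken to pair them. In every other pair of groups at least 1 of the 4 values was below 0.1.

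The 10 genes and all lists were chosen with earlier results of these data known. Of each list and comparison, the text names only genes that are among the 4 with the largest change past the threshold and a mean normalized count above 100, or X-linked genes with a ratio. Likeness to a member is Pearson's r over the 16 libraries. By that rule it is given for *Pgk1* and *Ldha*, and the other 4 genes it is given for were chosen after their values were seen. Gene positions are from GENCODE M21 on mm10, which matched all but 232 of the 16335 bulk genes by name, and promoters from RefSeq on GRCm38.p6. Levels per kilobase divide by the summed length of a gene's exons. Wells with under 4000 detected genes, under 10000 reads or over 5% mitochondrial reads were left out. No doublet caller was run, as 1 cell was sorted per well. Intervals are exact 95% Poisson intervals and cover counting error only, since PCR reads without molecular identifiers are not independent molecules. Ratios were compared with exact two-sided permutation tests over libraries.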

Additional observations from a re-analysis of the deposited data

Results flagged for a closer look

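Among 68 sets of 4 values per group, 4 held a library whose gap to the nearest other one divided by the group's range was above Dixon's 95% critical value, and chance marks about 5% of such sets. In XGFP− PGCLCs, replicate 3 was the lowest for *Aldoa* (14256 normalized counts, the next at 30822) and for *Pgam1* (1925, the next at 2812). In EpiLCs, replicate 3 was the lowest for *Ldha* (37322, the next at 47804). The other was *Hk2* in EpiLCs, where replicate 4 was the highest (4466, the next at 3754). So 3 of the 4 belong to replicate 3, the library that was lowest for 9 of the 10 genes in each of these groups. They are the same values that set replicate 3 apart above, and sets from the same libraries are not independent.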

How the results depend on the processing

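Of 1220 recomputed fold changes of the 10 genes, 1143 kept direction and side of the threshold, 26 lost and 40 gained a call, and 11 changed sign. The cause of these changes was not tested. The count of called genes in EpiLCs against ESCs was 5 (47.8% of all genes). It became 8 without replicate 3 of every group (40.6%) and 3 with an absolute log2 fold change above 1 (25.8%). In XGFP− PGCLCs against EpiLCs it was 5 (61.9% of all genes), and 8 at an FDR below 0.05 (78.2%). Between the PGCLC groups it was 2 (23.8%), and 1 with the compared groups alone (22.5%), with edgeR (24.4%) or with an absolute log2 fold change above 1 (11.2%). It was 4 without replicate 3 (17.3%) and 5 in the paired fit of PGCLC libraries alone (32.1%). Leaving out 1 library gave 4 to 5, 8 to 9, 8, 7 to 8, 5 and 1 to 3 called genes in the 6 comparisons, where between PGCLC groups the 3 came without XGFP+ replicate 2 or XGFP− replicate 3, and the 1 without any of the other PGCLC libraries. The shares of all genes in these fits are not given here, so the counts show only how the calls moved.

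With the replicate number as a block in the fit of 16 libraries, the counts were 7, 10, 10, 8, 6 and 2. Of all genes, this fit called 49.6% to 63.4% in the comparisons with ESCs or EpiLCs and 25.6% between the PGCLC groups. The groups other than the PGCLC pair share only a number, although every EpiLC library correlated best with the ESC library of its own number. In the pairing of PGCLC libraries alone, 5 genes were called (32.1% of all genes).

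Changes of sign concerned values near 0. *Aldoa* in XGFP+ PGCLCs against EpiLCs ran from −0.36 to 0.01 with 1 library left out, and in XGFP− PGCLCs from −0.27 to 0.13, with 0.01 under quantile normalization and 0.01 without replicate 3. Between PGCLC groups *Aldoa* ran from −0.17 to 0.37 and *Ldha* from −0.67 to 0.32. *Pgk1* in XGFP+ PGCLCs against EpiLCs ran from −0.48 to 0.04. Differences of median *Pgk1* ratios were −0.262, −0.364, 0.253, −0.102 and −0.356 for EpiLCs and XGFP− PGCLCs against ESCs, XGFP+ and XGFP− PGCLCs against EpiLCs, and XGFP− against XGFP+ PGCLCs (adjusted p 0.0686, exact permutation test). With 1 library left out, the differences of means in that order ran from −0.278 to −0.256, −0.369 to −0.345, 0.254 to 0.273, −0.101 to −0.0764 and −0.368 to −0.343, where the smallest p that 3 against 4 libraries allow is 0.0571. XGFP+ PGCLCs against ESCs ran from −0.0114 to 0.00672. The X cas level of *Pgk1* ran from −0.42 to −0.06 in EpiLCs, −1.28 to −0.80 in XGFP+ and −1.23 to −0.76 in XGFP− PGCLCs against ESCs, −1.04 to −0.51 and −1.02 to −0.48 against EpiLCs, and −0.29 to 0.35 between PGCLC groups, with −0.03 under TMM scaling.

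The summed single-cell level moved beyond its counting interval under most choices. In cells filtered on reads alone it was 8440.5 CPM in XGFP+ constitutive, 8435 in XGFPhigh, 2907 in XGFPintermediate and 3793 in XGFPlow cells. In cells with *Dazl* above 1 it was 8637, 8239, 2515 and 2694, and as a mean over cells 8243, 8574, 2763 and 3772, with 7408 in ESCs. In the shared run code it was 6416, 3331 and 2208 in XGFPhigh, XGFPintermediate and XGFPlow cells, and there XGFPlow lay below XGFPintermediate, against the order in all cells. The levels of XGFPintermediate and XGFPlow stayed below the other rOvary populations in each of these.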
